A study of Mus musculus with 12 samples.

Results

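The 46 genes described here are classical interferon-stimulated genes, taken by symbol from a fixed list of names. That list was chosen with earlier results of these data known, so counts of members describe the set and are not independent support. All 46 were among the 12850 genes measured and all 46 passed the filter on low values (at least 1 CPM, reads scaled to a common library size, in at least 2 libraries), which left 11885 genes for testing. Type I interferons signal through the receptor IFNAR and the kinases JAK1 and TYK2 to transcription factors that bind the interferon-stimulated response element (ISRE) in promoters. In macrophages, lipopolysaccharide (LPS, a bacterial cell wall component) engages TLR4. The TRIF arm of that pathway leads through TBK1 and IRF3 to interferon beta. Through it, genes of this kind can follow LPS as a secondary wave. Their products include sensors and blockers of viral RNA, ubiquitin-like modifiers, membrane proteins and regulators that damp the same pathway.

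Polyadenylated RNA was sequenced from thioglycollate-elicited peritoneal exudate cells (PECs), the cells that collect in the mouse peritoneum after an irritant, taken 3.5 days after the injection and put in culture. The mice were C57BL/6 and either wild type (WT) or homozygous for a knock-in at *Zc3h12a*, named S513A, which replaces a serine of Regnase-1, an RNase that degrades mRNAs of inflammatory genes, by alanine. The knock-in was made with CRISPR/Cas9 in fertilized eggs and is carried by every cell, and ages are not given in the sources used here. Cells were left without LPS (0 hr) or received LPS at 100 ng/ml for 4 or 8 hr, with 2 libraries in each of the 6 groups, 12 in all. The labels do not say whether the 2 libraries of a group came from different mice, so p values measure the spread between these libraries, which may be technical. A substitution leaves no trace in counts per gene, so the genotype labels could not be checked here.

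Each library held 9525979 to 12439960 reads over the 12850 genes. The 7 macrophage markers examined were all listed and summed to 16160 to 26350 CPM in every library. Of the other lists, 2 of 6 neutrophil markers (*S100a8* and *Camp*) summed to 20.2 to 108 CPM, 4 of 5 B cell markers to 3.27 to 8.68 CPM, *Lck* alone of 5 T cell markers to 0.488 to 2.11 CPM, and 3 of 4 mast cell markers to 1.32 to 3.05 CPM. *Siglecf*, the 1 eosinophil marker of 4 that was listed, was at 15.2 to 18.3 CPM at 0 hr and 2.93 to 4.27 CPM at 8 hr. Of the 5 markers of plasmacytoid dendritic cells, the cell type known for interferon production, *Ccr9* and *Cox6a2* were listed and summed to 0.418 to 1.00 CPM at 0 hr and 3.02 to 4.14 CPM after LPS. The other markers of these lists were not found by symbol among the 12850 genes. The filter behind those genes is not given, so this does not show that they were silent. The part of these cells in the results below was not tested.

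Promoters are shown because the ISRE is the element through which type I interferon is known to act on such genes. RefSeq promoter windows (GRCm38.p6, 250 bases before to 50 after a start) were matched for 36 of the 46 members, in 42 windows. The ISRE core was searched as GAAANNGAAA on both strands. It was found in 14 of these 36 members (38.9%), against 3.99% of the 27025 genes with a window and 3.98% of the 9345 tested genes with one. The gamma-activated site core, TTCNNNGAA, was found in 5 of 36 members (13.9%) and in 9.55% of all genes with a window. The 14 members with an ISRE core were *Ifit1*, *Ifit3*, *Ifit3b*, *Isg15*, *Oas1a*, *Oas1g*, *Oas3*, *Rsad2*, *Bst2*, *Phf11b*, *Slfn5*, *Slfn8*, *Lgals9* and *Ddx60*. Windows of 5 of them follow, 5′ to 3′ in the direction of the gene, with the ISRE cores in capitals. *Isg15* was chosen as the most abundant member after LPS, *Ifit1* as the steepest rise, *Rsad2* as the largest fall after 4 hr, and *Oas3* and *Bst2* as the called members that gained most after 4 hr.
*Isg15* (chr4:156200769-156201068, reverse strand): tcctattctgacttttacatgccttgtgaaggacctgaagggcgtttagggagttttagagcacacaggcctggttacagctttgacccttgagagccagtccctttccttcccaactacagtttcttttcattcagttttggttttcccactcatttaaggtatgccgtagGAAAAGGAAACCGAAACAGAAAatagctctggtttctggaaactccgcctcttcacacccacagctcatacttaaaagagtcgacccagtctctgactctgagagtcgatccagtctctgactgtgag
*Ifit1* (chr19:34640639-34640938, forward strand): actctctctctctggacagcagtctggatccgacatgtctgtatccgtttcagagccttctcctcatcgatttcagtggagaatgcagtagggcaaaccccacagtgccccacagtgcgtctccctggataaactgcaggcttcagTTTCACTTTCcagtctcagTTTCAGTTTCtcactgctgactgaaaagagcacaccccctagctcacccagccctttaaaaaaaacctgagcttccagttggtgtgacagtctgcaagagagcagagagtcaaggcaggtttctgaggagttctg
*Rsad2* (chr12:26456403-26456702, reverse strand): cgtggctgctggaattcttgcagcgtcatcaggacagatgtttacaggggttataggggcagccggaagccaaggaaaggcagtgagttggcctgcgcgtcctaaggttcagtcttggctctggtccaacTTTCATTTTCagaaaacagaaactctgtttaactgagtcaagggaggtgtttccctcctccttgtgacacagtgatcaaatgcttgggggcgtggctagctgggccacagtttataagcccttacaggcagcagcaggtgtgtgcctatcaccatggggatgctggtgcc
*Oas3* (chr5:120777610-120777909, reverse strand): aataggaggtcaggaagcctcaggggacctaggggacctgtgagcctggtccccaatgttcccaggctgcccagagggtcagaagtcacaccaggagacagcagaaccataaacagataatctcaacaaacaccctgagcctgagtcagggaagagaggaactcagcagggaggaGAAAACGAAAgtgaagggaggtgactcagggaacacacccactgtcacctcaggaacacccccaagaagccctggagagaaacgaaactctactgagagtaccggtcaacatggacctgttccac
*Bst2* (chr8:71537423-71537722, reverse strand): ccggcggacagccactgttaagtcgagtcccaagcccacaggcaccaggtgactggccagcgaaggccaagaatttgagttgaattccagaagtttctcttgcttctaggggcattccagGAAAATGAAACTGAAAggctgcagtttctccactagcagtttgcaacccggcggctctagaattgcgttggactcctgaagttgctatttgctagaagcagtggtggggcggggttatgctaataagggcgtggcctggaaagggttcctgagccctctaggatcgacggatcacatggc
In *Isg15* the 3 matches overlap and begin 78, 72 and 66 bases before the start, in *Bst2* the 2 matches overlap and begin 130 and 124 bases before it, and in *Ifit1* 2 separate matches begin 104 and 85 bases before it. The single match began 120 bases before the start in *Rsad2* and 75 bases before it in *Oas3*. A match is a run of letters and not a measured binding site.

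Nearly the whole set was higher after LPS. There was no group without LPS at 4 or 8 hr, and times in culture are not given. LPS and time in culture cannot be told apart here. At 4 hr, 45 of the 46 members were higher than at 0 hr and none was lower by limma at a Benjamini-Hochberg adjusted p below 0.05, as the mean of both genotypes, where 29.1% of all genes tested were higher and 26.7% lower. At 8 hr all 46 were higher than at 0 hr and none was lower, against 24.5% and 21.6% of all genes. The members' median log2 fold change was 3.02 at 4 hr (range 0.40 to 7.27) and 3.31 at 8 hr (range 1.11 to 6.32 without *Ifi44*), with all-gene medians of 0.02 and 0.00. At 4 hr, 36 members changed by more than 4-fold and 14 by more than 16-fold, and the shares of all genes were not counted. Both counts include *Ifi44*, *Ifit3b* and *Mx2*, whose resting libraries held few reads, so that the size of their rise is uncertain. In bulk RNA, more cells of a kind and more RNA per cell cannot be told apart.

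The share of all reads that fell on the 46 genes shows the same rise as a whole. At 0 hr it was 0.257% and 0.242% in WT and 0.244% and 0.259% in S513A, 1.49% and 1.63% in WT and 1.75% and 1.94% in S513A at 4 hr, and 1.19% and 1.36% in WT and 1.49% and 1.56% in S513A at 8 hr. No library after LPS overlapped those at 0 hr, and each S513A library exceeded both WT libraries of its time at 4 and 8 hr. The 95% Wilson interval of each share was within 0.00863 percentage points of its value, which covers counting error only. Each genotype alone gave the same picture, with 45 members higher at 4 hr in WT and 45 in S513A (22.6% and 23.1% of all genes), and 46 in WT and 45 in S513A at 8 hr (19.4% and 20.9% of all genes).

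**Figure D1:**
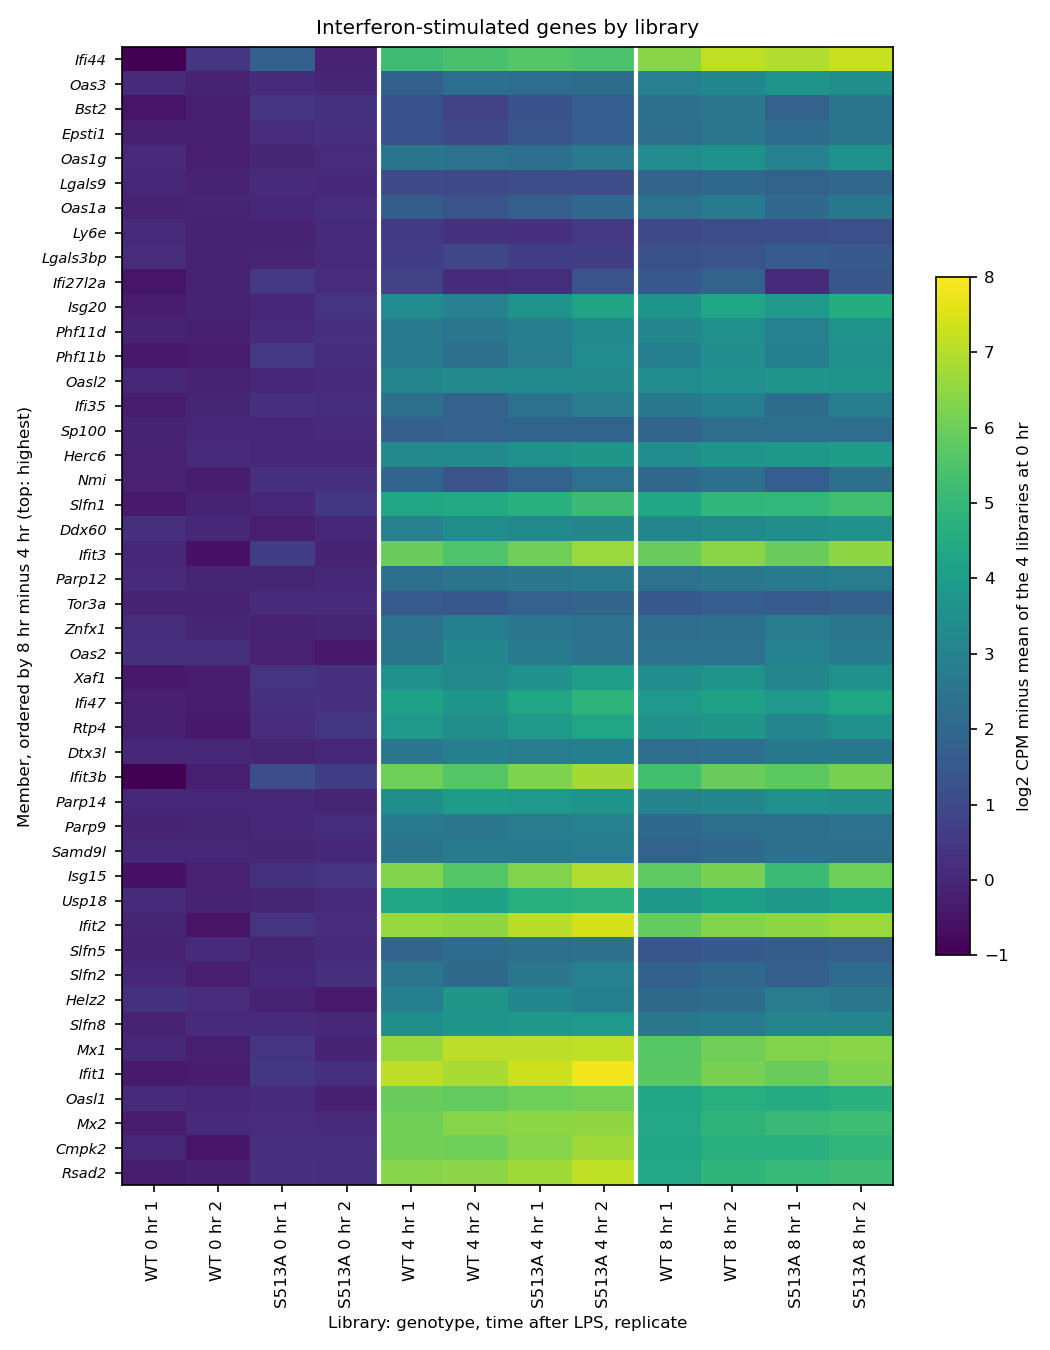
Log2 CPM of the 46 members (rows) in the 12 libraries (columns, genotype, time and replicate), each minus that member's mean over the 4 libraries at 0 hr; brighter is higher. All libraries after LPS are brighter than those at 0 hr in nearly every row, and the bottom rows, such as *Rsad2*, are brighter at 4 hr than at 8 hr while the top rows are brighter at 8 hr.

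The IFIT genes, which encode proteins that bind foreign RNA and hold back its translation, lie together on chromosome 19 and held 2 of the 3 steepest rises of the set. *Ifit1* (chr19:34640871-34650009, forward strand) had log2 CPM of 2.28 and 2.31 in WT and 3.08 and 2.89 in S513A at 0 hr, 9.75 and 9.46 in WT and 9.96 and 10.45 in S513A at 4 hr, and 8.34 and 8.79 in WT and 8.55 and 8.92 in S513A at 8 hr. It rose 154-fold at 4 hr (log2 7.27 ± 0.14, SE) and then fell by 1.26 ± 0.14 (adjusted p = 0.00014), with all libraries at 8 hr below those at 4 hr. *Ifit2* (chr19:34550694-34576419, forward strand) had log2 CPM of 2.84 and 2.36 in WT and 3.28 and 3.02 in S513A at 0 hr, 9.48 and 9.36 in WT and 9.90 and 10.28 in S513A at 4 hr, and 8.75 and 9.15 in WT and 9.33 and 9.53 in S513A at 8 hr. It rose by 6.88 ± 0.14 and fell between 4 and 8 hr by 0.57 ± 0.14 (adjusted p = 0.013), a smaller fall whose libraries overlapped and whose adjusted p was over 0.05 without WT replicate 1 at 8 hr (0.062) or S513A replicate 2 at 4 hr (0.051).

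*Ifit3* (chr19:34583531-34588731, forward strand) and *Ifit3b* (chr19:34607970-34613401, forward strand) share 97.8% of 1700 aligned bases, so the division of reads between them is uncertain. *Ifit3* had log2 CPM of 1.87 and 1.28 in WT and 2.48 and 1.73 in S513A at 0 hr, 7.82 and 7.35 in WT and 7.88 and 8.50 in S513A at 4 hr, and 7.73 and 8.25 in WT and 7.82 and 8.30 in S513A at 8 hr. Its 8 hr libraries lay among those of 4 hr (0.14 ± 0.23, not called). *Ifit3b* had few reads at rest, 2 and 5 in WT and 12 and 9 in S513A, and at 4 and 8 hr its log2 CPM was 5.03 and 4.60 in WT and 5.28 and 5.78 in S513A, then 4.29 and 4.92 in WT and 4.73 and 5.17 in S513A. *Ifit3* took 81.2% to 96.3% of the reads of the pair at 0 hr, 85.9% to 87.3% at 4 hr and 89.5% to 91.6% at 8 hr.

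The MX genes, dynamin-like GTPases that block viral replication, rose and fell back in both members. Laboratory C57BL/6 mice carry an *Mx1* allele that makes no functional protein, and its transcript was nonetheless among the 3 largest rises. *Mx1* (chr16:97447035-97462907, reverse strand) had log2 CPM of 1.66 and 1.37 in WT and 1.97 and 1.49 in S513A at 0 hr, 8.25 and 8.71 in WT and 8.74 and 8.77 in S513A at 4 hr, and 7.28 and 7.68 in WT and 7.93 and 8.04 in S513A at 8 hr. The rise at 4 hr was 128-fold (log2 6.99 ± 0.14), followed by a fall of 0.89 ± 0.14 (adjusted p = 0.0013). *Mx2* (chr16:97535308-97560900, forward strand), with 10 to 12 reads in each library at rest, had log2 CPM of -0.45 and -0.06 in WT and 0.01 and -0.05 in S513A at 0 hr, 5.95 and 6.22 in WT and 6.33 and 6.37 in S513A at 4 hr, and 4.28 and 4.73 in WT and 4.93 and 5.06 in S513A at 8 hr. Its libraries at 8 hr all lay below those at 4 hr (-1.47 ± 0.13, adjusted p = 3.5e-05). The transcripts of *Mx1* and *Mx2* are 94.8% alike over 920 bases.

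*Rsad2* and *Cmpk2* are neighbours on chromosome 12 that are transcribed away from each other, and they had the 2 largest falls between 4 and 8 hr. *Rsad2* (chr12:26442746-26456452, reverse strand) encodes viperin, an enzyme that turns CTP into a chain terminator of viral RNA synthesis, and *Cmpk2* (chr12:26469204-26479837, forward strand) a mitochondrial nucleotide kinase. *Rsad2* had log2 CPM of 4.27 and 4.34 in WT and 4.83 and 4.75 in S513A at 0 hr, 10.92 and 10.97 in WT and 11.27 and 11.68 in S513A at 4 hr, and 8.98 and 9.42 in WT and 9.58 and 9.75 in S513A at 8 hr. It rose 101-fold at 4 hr and by 8 hr had fallen to 29.6-fold over rest, a drop of 1.78 ± 0.12 on the log2 scale (adjusted p = 7.9e-06). *Cmpk2* followed the same course, with log2 CPM of 3.73 and 3.24 in WT and 3.88 and 3.88 in S513A at 0 hr, 9.75 and 9.69 in WT and 10.05 and 10.39 in S513A at 4 hr, and 7.96 and 8.35 in WT and 8.35 and 8.60 in S513A at 8 hr. It dropped by 1.66 ± 0.13 between 4 and 8 hr (adjusted p = 1.8e-05), and in both genes the 4 hr and 8 hr libraries did not overlap.

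The OAS family split in its course. OAS proteins make oligoadenylates that switch on RNase L, and 4 of the 6 members (*Oas3*, *Oas1g*, *Oas1a* and *Oasl2*) rose further between 4 and 8 hr, 1 (*Oasl1*) fell and *Oas2* was not called. *Oas3* (chr5:120753098-120777661, reverse strand), the largest called gain of the set in that interval, had log2 CPM of 5.88 and 5.62 in WT and 5.85 and 5.72 in S513A at 0 hr, 7.56 and 8.06 in WT and 8.02 and 7.95 in S513A at 4 hr, and 8.69 and 8.98 in WT and 9.43 and 9.26 in S513A at 8 hr. Every 8 hr library was above every 4 hr library, a gain of 1.20 ± 0.12 or 2.29-fold (adjusted p = 7.1e-05). *Oasl1* (chr5:114923240-114937915, forward strand), an OAS relative that lacks synthase activity and represses translation of *Irf7*, went the other way, rising by 5.97 ± 0.10 at 4 hr and dropping by 1.43 ± 0.10 after it (adjusted p = 1.2e-05). *Oasl2*, the gene next to it on chromosome 5, rose by 3.22 ± 0.07 and gained a further 0.35 ± 0.07 (adjusted p = 0.0062).

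*Oas1a* (chr5:120896256-120907521, reverse strand) and *Oas1g* (chr5:120876142-120887613, reverse strand) share 97.6% of 1861 aligned bases, so that reads may be divided wrongly between them. *Oas1a* had log2 CPM of 5.27 and 5.34 in WT and 5.41 and 5.56 in S513A at 0 hr, 7.07 and 6.71 in WT and 7.11 and 7.45 in S513A at 4 hr, and 7.74 and 8.06 in WT and 7.46 and 8.04 in S513A at 8 hr. *Oas1g* had log2 CPM of 3.01 and 2.63 in WT and 2.87 and 3.05 in S513A at 0 hr, 5.40 and 5.30 in WT and 5.18 and 5.64 in S513A at 4 hr, and 6.24 and 6.47 in WT and 5.84 and 6.50 in S513A at 8 hr. Both gained between 4 and 8 hr, *Oas1a* by 0.74 ± 0.14 and *Oas1g* by 0.88 ± 0.16 (adjusted p = 0.0037 and 0.0026), and *Oas1a* took 72.7% to 86.8% of the reads of the pair in every library. *Oas2* differed by -0.10 ± 0.15 between 8 and 4 hr, with means of 4.46 ± 0.33, 7.16 ± 0.36 and 7.05 ± 0.29 (log2 CPM, SD, n = 4 libraries of both genotypes) at 0, 4 and 8 hr.

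The genes of the ISG15 system encode the ubiquitin-like protein itself, the protease USP18, which removes it and also restrains the interferon receptor, and HERC6, the ligase that attaches it in mice. *Isg15* (chr4:156199424-156200818, reverse strand) was the most abundant member per length after LPS, at 1023 RPKM (CPM per kb of exon) at 4 hr and 703 at 8 hr, against 12.8 at rest. Its log2 CPM was 2.67 and 3.07 in WT and 3.56 and 3.63 in S513A at 0 hr, 9.54 and 8.85 in WT and 9.53 and 10.17 in S513A at 4 hr, and 9.01 and 9.40 in WT and 8.37 and 9.25 in S513A at 8 hr. The rise at 4 hr was 78.1-fold (log2 6.29 ± 0.22), and the libraries at 4 and 8 hr overlapped widely (-0.52 ± 0.22, adjusted p = 0.123, 0.024 to 0.354 over the alternatives, below 0.05 in 3 of 24). It was 0.01 ± 0.32 in WT alone and fell by 1.04 ± 0.32 in S513A alone (adjusted p = 0.046), and the difference between these was not called (adjusted p = 0.26). *Usp18* rose by 4.49 ± 0.11 and fell by 0.55 ± 0.11 by 8 hr (adjusted p = 0.0037). *Herc6* rose by 3.47 ± 0.09 and differed by 0.26 ± 0.09 between 8 and 4 hr (adjusted p = 0.064), with 13.7% of its exon length shared with a predicted gene on its own strand.

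The Schlafen genes, linked to growth control in immune cells, form a cluster on chromosome 11 and fell between 4 and 8 hr in 3 of 4 members. *Slfn2* (chr11:83065112-83070678, forward strand), the third most abundant member per length, had log2 CPM of 7.21 and 6.94 in WT and 7.20 and 7.44 in S513A at 0 hr, 9.75 and 9.30 in WT and 9.76 and 10.11 in S513A at 4 hr, and 8.97 and 9.27 in WT and 8.92 and 9.37 in S513A at 8 hr. It was already at 88.6 RPKM at rest, rose by 2.53 ± 0.15 and fell by 0.60 ± 0.15 (adjusted p = 0.013), a call that was lost without WT replicate 1 at 8 hr (0.062) or S513A replicate 2 at 4 hr (0.052). *Slfn5* and *Slfn8* rose by 2.16 and 3.71 and fell by 0.58 and 0.82. *Slfn5* overlaps the antisense gene *Slfn5os* over 559 bases of exon, and the reads were treated as unstranded. *Slfn1* rose by 4.68 ± 0.16 and differed by 0.19 ± 0.16 between 8 and 4 hr, which was not called.

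Of the PARP group, *Parp9* and *Dtx3l* encode partners in an ADP-ribosylation and ubiquitin ligase complex, and *Parp14* and *Parp12* encode other ADP-ribosyltransferases. They rose by 2.74, 2.78, 3.74 and 2.51 at 4 hr on the log2 scale. *Parp9*, *Dtx3l* and *Parp14* then fell by 0.49, 0.34 and 0.44, and *Parp12* differed by 0.10. The falls of *Dtx3l* and *Parp14* did not pass after quantile normalization (adjusted p = 0.088 and 0.074) or with CPM of the summed reads (0.069 and 0.054). *Parp9* and *Dtx3l* overlap on opposite strands by 458 bases of exon, and reads there cannot be told apart.

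The membrane and secreted group held the 2 members most abundant at rest, and 4 of its 5 members rose again between 4 and 8 hr. *Bst2* (chr8:71534255-71537456, reverse strand), tetherin, which holds budding virions on the cell surface, stood highest per length at 0 hr (125 RPKM) and second at 8 hr. Its log2 CPM was 6.28 and 6.54 in WT and 7.18 and 7.09 in S513A at 0 hr, 8.03 and 7.55 in WT and 8.03 and 8.46 in S513A at 4 hr, and 9.06 and 9.34 in WT and 8.60 and 9.28 in S513A at 8 hr. Every library at 8 hr was above every library at 4 hr, a gain of 1.05 ± 0.17 (adjusted p = 0.0012), close in size to the 1.25 ± 0.17 of the first 4 hr. *Lgals9*, a galectin, *Lgals3bp*, a secreted galectin-binding glycoprotein, and *Ly6e*, a surface protein that blocks entry of some viruses, rose by 1.07, 0.73 and 0.40 at 4 hr and by a further 0.85, 0.69 and 0.71 by 8 hr. The 4 hr value of *Ly6e* depended on the scaling and was -0.0035 after quantile normalization and 0.15 with CPM of the summed reads, where it was not called. *Rtp4*, a transport protein of the Golgi, rose by 3.86 at 4 hr and differed by -0.31 ± 0.14 between 8 and 4 hr (adjusted p = 0.145).

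Among the remaining members, *Epsti1* (chr14:77904239-78002657, forward strand) had the third largest called gain after 4 hr, with log2 CPM of 5.30 and 5.34 in WT and 5.67 and 5.82 in S513A at 0 hr, 6.80 and 6.47 in WT and 6.85 and 7.22 in S513A at 4 hr, and 7.74 and 8.06 in WT and 7.68 and 8.01 in S513A at 8 hr. It gained 1.03 ± 0.12 (adjusted p = 0.0002), with the 2 times not overlapping. *Sp100*, a component of PML nuclear bodies, rose by 1.85 and then by 0.30 ± 0.08 (adjusted p = 0.017), a call lost without WT replicate 2 (0.076) or S513A replicate 1 (0.051) at 8 hr. *Samd9l*, a growth suppressor that senses viral infection, rose by 2.66 and fell by 0.51 ± 0.08 (adjusted p = 0.0012). *Helz2*, a helicase-domain coactivator, rose by 3.19 and fell by 0.75 ± 0.17 (adjusted p = 0.0086).

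*Ifi27l2a* (chr12:103442167-103443680, reverse strand) was the only member not called at 4 hr by the deposited scaling. Its log2 CPM was 3.92 and 4.27 in WT and 4.91 and 4.57 in S513A at 0 hr, 5.16 and 4.50 in WT and 4.58 and 5.71 in S513A at 4 hr, and 5.92 and 6.30 in WT and 4.48 and 5.84 in S513A at 8 hr. Its replicates lay up to 1.35 apart, and it differed from rest by 0.57 ± 0.31 at 4 hr (adjusted p = 0.145). As the mean of both genotypes it rose by 1.22 ± 0.31 at 8 hr (adjusted p = 0.0082). Its group means at 0 and 8 hr were 4.09 and 6.11 in WT but 4.74 and 5.16 in S513A. In S513A, replicate 1 at 8 hr (4.48) lay below both libraries at 0 hr. It was called at 4 hr without S513A replicate 1 of that time (adjusted p = 0.039). With 463 bases of exon it is the shortest member. *Ifi44*, at the other end of abundance, had read counts of 0 and 2 in WT and 5 and 1 in S513A at rest, 59 and 66 in WT and 70 and 53 in S513A at 4 hr, and 125 and 211 in WT and 202 and 199 in S513A at 8 hr. Its resting libraries lie near or under the floor of 3 reads, so that the size of its fold against them is not given. Its gain of 1.51 ± 0.52 between 4 and 8 hr had an adjusted p of 0.057. That p ran from 0.0002 to 0.176 over 24 alternatives and was below 0.05 in 11, among them the added pseudocount, quantile normalization and voom weights. Leaving it out, the members' medians were 2.85 at 4 hr and 3.30 at 8 hr.

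Another 10 members rose at 4 hr and were not called between 4 and 8 hr. Their rises were 3.54 for *Isg20*, an exonuclease, 4.26 for *Ifi47*, an immunity-related GTPase, 3.60 for *Xaf1*, a promoter of cell death, and 1.69 for *Tor3a*, a torsin ATPase. *Nmi* and *Ifi35*, whose proteins bind each other, rose by 1.85 and 2.33, and the PHD finger genes *Phf11b* and *Phf11d*, alike in 92.9% of 692 bases, by 2.81 and 2.85. *Ddx60* and *Znfx1*, helicases of RNA sensing, rose by 3.20 and 2.54.

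Between 4 and 8 hr the set divided rather than moved together. Of the 46 members, 16 fell and 10 rose, where 12.8% of all genes rose and 12.8% fell, and 20 were not called. With CPM of the summed reads, a scaling that moved the median of all genes, 14 rose and 14 fell, beside 16.7% and 8.38% of all genes. The members' median was -0.07 and the median of all genes -0.02, with single members from -1.78 to 1.51. All 26 called members had the same sign in WT alone and in S513A alone, but they were called on the mean of both, which favours equal signs. Of the 20 not called, 11 had opposite signs. In WT alone 8 members rose and 13 fell (6.73% and 7.49% of all genes), and in S513A alone 7 rose and 15 fell (9.31% and 8.99%). Of these, 6 rose and 10 fell in each genotype, and the share of all genes called in both was not counted. Roles were unevenly placed, since the IFIT, MX, viperin, PARP and Schlafen groups held 12 of the falls and none of the gains, and the OAS and membrane groups held 8 of the 10 gains and 1 of the falls.

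**Figure D2:**
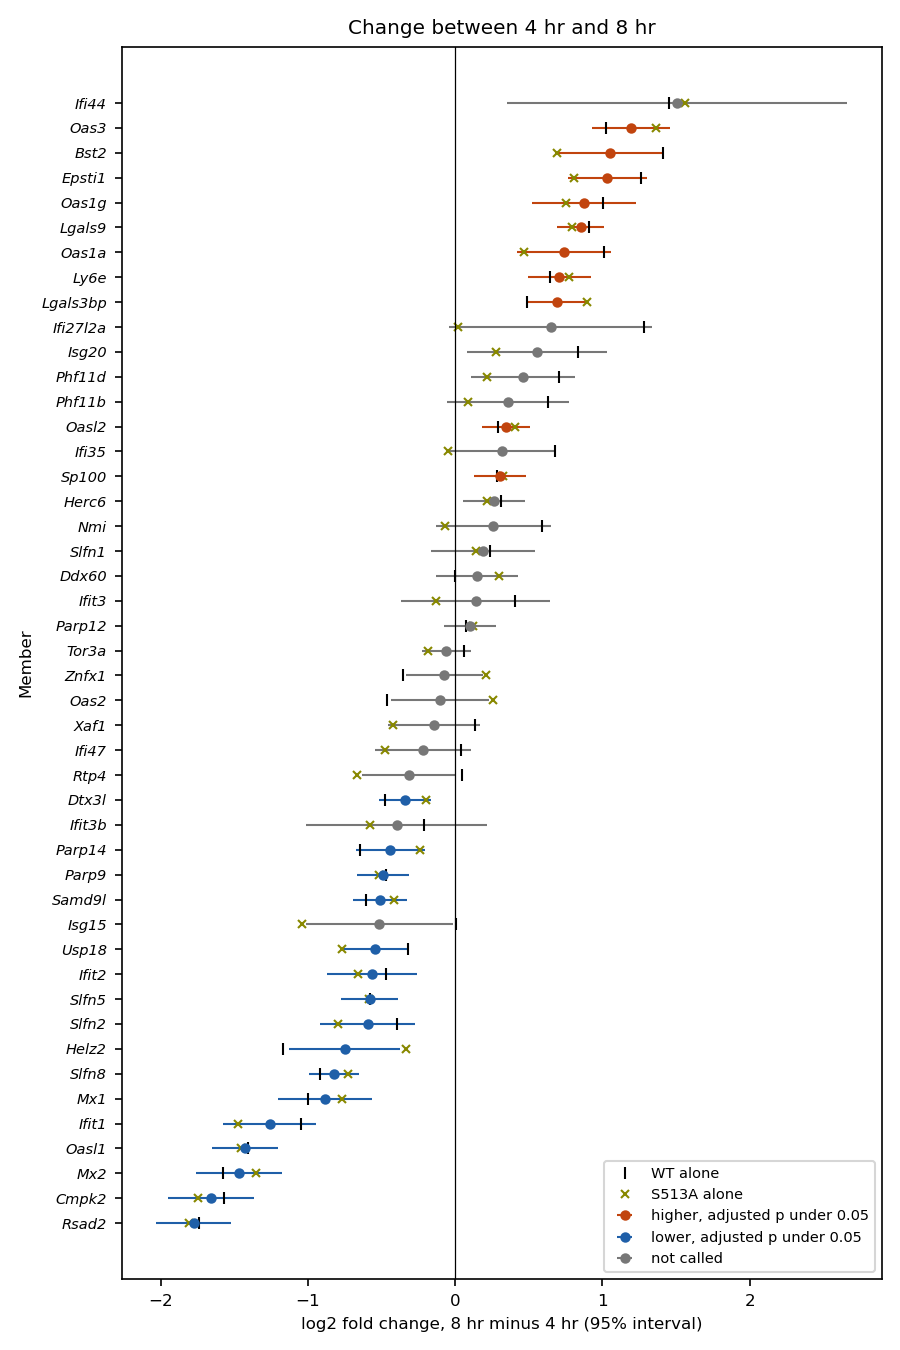
Log2 fold change of each member between 8 hr and 4 hr (horizontal axis) as the mean of both genotypes, with its 95% interval from limma; ticks and crosses give WT and S513A alone. The 16 falls (blue) run down to -1.78 for *Rsad2* and the 10 gains (red) up to 1.20 for *Oas3*, while *Ifi44* at 1.51 has the widest interval and was not called.

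The members that rose after 4 hr had, by their median, a higher level at rest and a smaller first rise. Their level at rest had a median of 21.3 RPKM (3.17 to 125), against 4.79 (0.243 to 88.6) in the members that fell and 5.55 (0.0276 to 47.5) in those not called. Their first rise had a median of 1.50 on the log2 scale, against 4.12 and 3.34, but these values share the 4 hr libraries with the change that follows. The level at rest, which uses other libraries, gave a Spearman rho of 0.30 with the 8 hr minus 4 hr change over the 46 members, a description across genes that share libraries. An ISRE core was found in 5 of the 9 rising members with a promoter window, 4 of the 11 falling and 5 of the 16 not called.

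**Figure D3:**
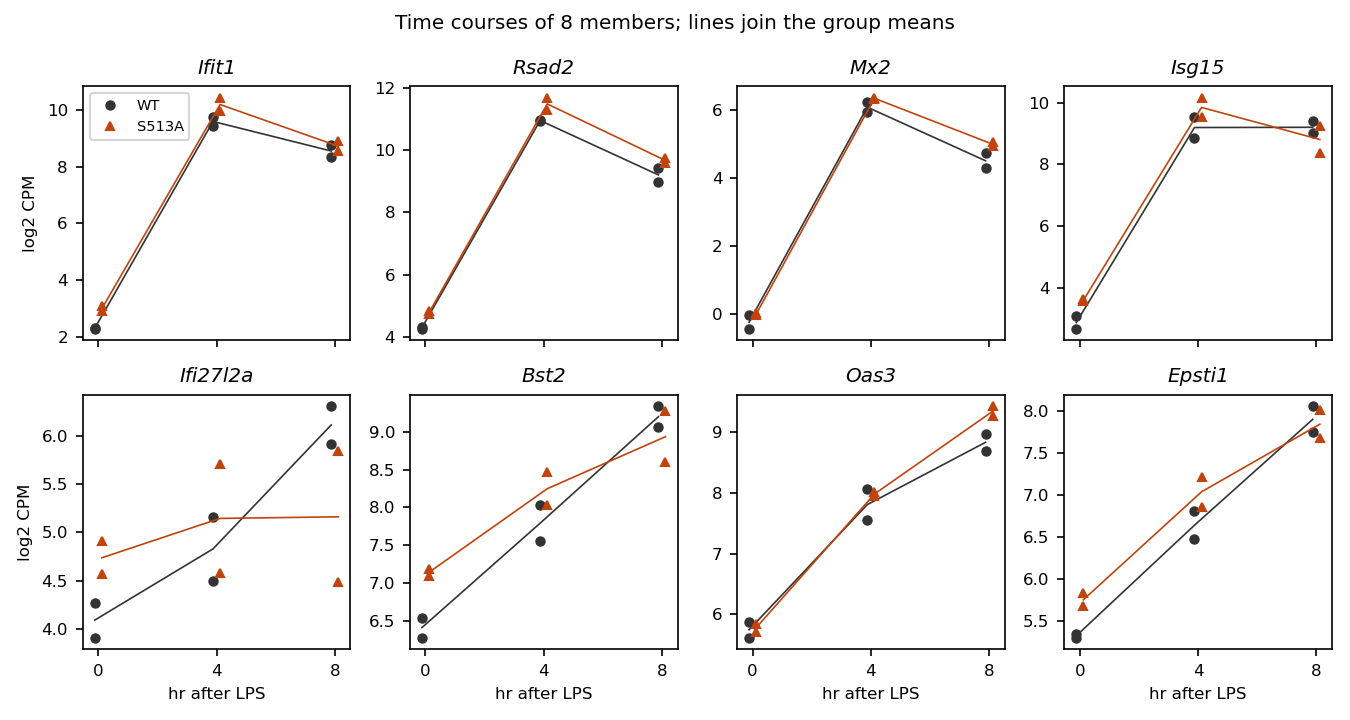
Log2 CPM (vertical axis, its range set per panel) of 8 members in each library at 0, 4 and 8 hr after LPS, WT as circles and S513A as triangles, with lines through the group means. *Ifit1*, *Rsad2* and *Mx2* peak at 4 hr, *Bst2*, *Oas3* and *Epsti1* are highest at 8 hr, and *Ifi27l2a* spreads widely between replicates.

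The order of abundance changed during the response. Per length, *Bst2*, *Ly6e* and *Slfn2* led at 0 hr with 125, 98.7 and 88.6 RPKM. At 4 hr *Isg15*, *Rsad2* and *Slfn2* led with 1023, 559 and 519.9. At 8 hr it was *Isg15*, *Bst2* and *Slfn2* with 703, 607 and 340.4, and *Rsad2* stood at 163. *Ifi44* was lowest at each time.

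The comparison of genotypes asks whether the S513A knock-in alters these genes. No member was called between S513A and WT at 0, 4 or 8 hr or over the mean of the times, with smallest adjusted p of 0.586, 0.622, 0.395 and 0.226 by limma. Few genes of any kind were, 0.0337%, 0.0168%, 0.0337% and 0.0673% of those tested. At an unadjusted p below 0.05, 12 members differed at 0 hr (11 higher and *Oas2* lower), 13 at 4 hr and 14 at 8 hr, all of them higher at 4 and 8 hr, beside 7.98%, 7.01% and 12.5% of all genes. Over the mean of the times 24 of 46 members were higher at that level and none lower, where 3.17% of all genes were higher. That count was 12 without WT replicate 1 at 8 hr and 15 without S513A replicate 2 at 4 hr, in fits where 3.79% and 4.85% of all genes reached that level in either direction. In a model of the 4 libraries of 0 hr alone, which called 3.82% of all genes higher and 2.01% lower in S513A, 7 members were called, with *Bst2*, *Epsti1*, *Phf11b*, *Rsad2*, *Rtp4* and *Xaf1* higher in S513A and *Oas2* lower.

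The members' median difference, S513A minus WT, came to 0.21 at 0 hr, 0.33 at 4 hr, 0.20 at 8 hr and 0.23 over the mean of the times, while that of all genes was 0.01 in each. Values above 0 were found in 37, 41, 34 and 44 of the 46 members, against 50.8%, 50.8%, 51.1% and 52.2% of all genes. The last count was 42 after quantile normalization and 40 with CPM of the summed reads. The S513A libraries did not overlap the WT libraries and lay above them in 22 members at 0 hr, 30 at 4 hr and 21 at 8 hr, against 30.4%, 14.3% and 27.9% of all genes. Only *Ifit2*, *Mx2*, *Slfn1*, *Rsad2* and *Parp9* did so at all 3 times. The share of all genes that did so at all 3 times was not counted, so these names do not set the members apart. All members were measured in the same 12 libraries and are not independent of each other.

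*Rsad2* had the smallest adjusted p over the mean of the times, at 0.49 ± 0.09 (0.28 to 0.70, 95% interval, adjusted p = 0.226). Its differences were 0.49, 0.53 and 0.46 at 0, 4 and 8 hr. *Ifit2* came next at 0.57 ± 0.11 (adjusted p = 0.235), with 0.55, 0.67 and 0.48. Neither passed the threshold, and the intervals reach up to 0.70 and 0.82 on the log2 scale, with 2 libraries a group. *Oas2* and *Helz2* were the 2 members with a negative mean difference, -0.12 and -0.05. The larger value of *Ifit3b* at 0 hr rests on 2 and 5 reads in WT and 12 and 9 in S513A.

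**Figure D4:**
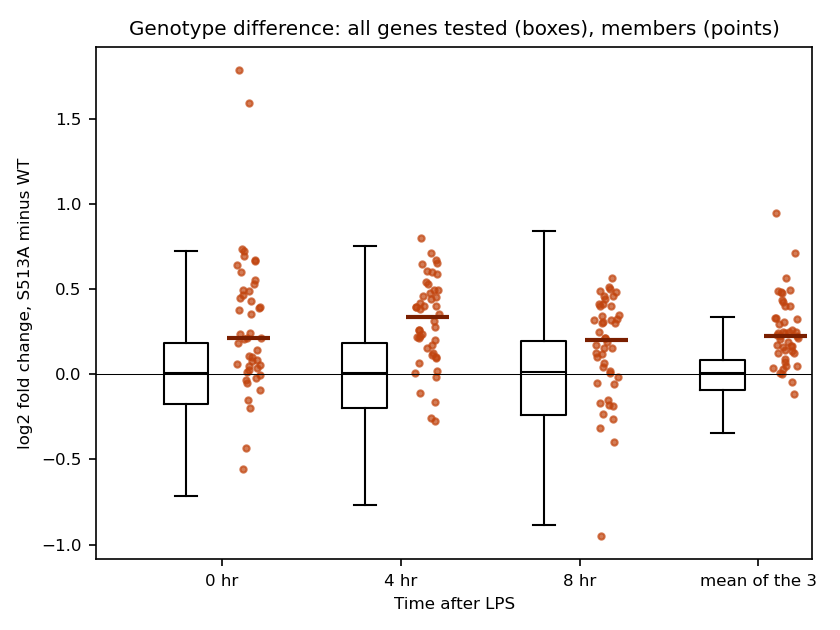
Log2 fold change of S513A minus WT (vertical axis) at each time and over their mean; boxes give the median, quartiles and whiskers of all 11885 genes tested, points the 46 members, and thick lines the members' medians. The members' medians lie at 0.21, 0.33, 0.20 and 0.23 and the boxes are centred near 0.

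The course after LPS was not called different between the genotypes in any member. The difference of responses was called in 0 members and in 0% of all genes for 4 hr against 0 hr, 8 hr against 0 hr and 8 hr against 4 hr alike. At an unadjusted p below 0.05 the counts were 0, 11 and 6 members, beside 1.21%, 20.2% and 18.9% of all genes, and the 11 were split into 6 lower and 5 higher in S513A. Without S513A replicate 2 at 8 hr, *Bst2* and *Ifi27l2a* passed for 8 hr against 0 hr, both lower in S513A, beside 5.48% of all genes in that fit. Without WT replicate 1 at 4 hr, 7 members passed for 8 hr against 4 hr (*Oas2*, *Parp14*, *Dtx3l*, *Lgals3bp*, *Helz2* and *Znfx1* higher in S513A and *Rtp4* lower), beside 20.8% of all genes in that fit.

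Transcript length moved with these differences. The Spearman rho of exon length with S513A minus WT over the 46 members was -0.60, -0.61 and 0.60 at 0, 4 and 8 hr, beside -0.42, -0.38 and 0.44 over 11712 genes. The 15 shortest members (463 to 2321 bases) had median differences of 0.46, 0.48 and -0.06, and the 15 longest (4498 to 11529 bases) had 0.05, 0.16 and 0.32. Length also moved with the difference between replicates of 1 group, with a rho over the members of 0.81 in WT at 4 hr and of -0.74 and -0.75 in S513A at 4 and 8 hr. With a trend in length removed from each library, 33 members had an unadjusted p below 0.05 in either direction over the mean of the times, beside 9.32% of all genes in that fit, and none was called. Without its removal these were 24 members and 6.71% of all genes. The summed neutrophil markers were 20.2 to 35.3 CPM in WT and 51.0 to 54.2 CPM in S513A at 0 hr, 45.3 to 64.8 and 53.2 to 108 CPM at 4 hr, and 84.1 to 102 and 33.5 to 86.8 CPM at 8 hr. The summed macrophage markers were 22950 to 23920 CPM in WT and 16160 to 21680 CPM in S513A at 8 hr and overlapped between genotypes at 0 and 4 hr. The part of either in the difference was not tested.

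**Figure D5:**
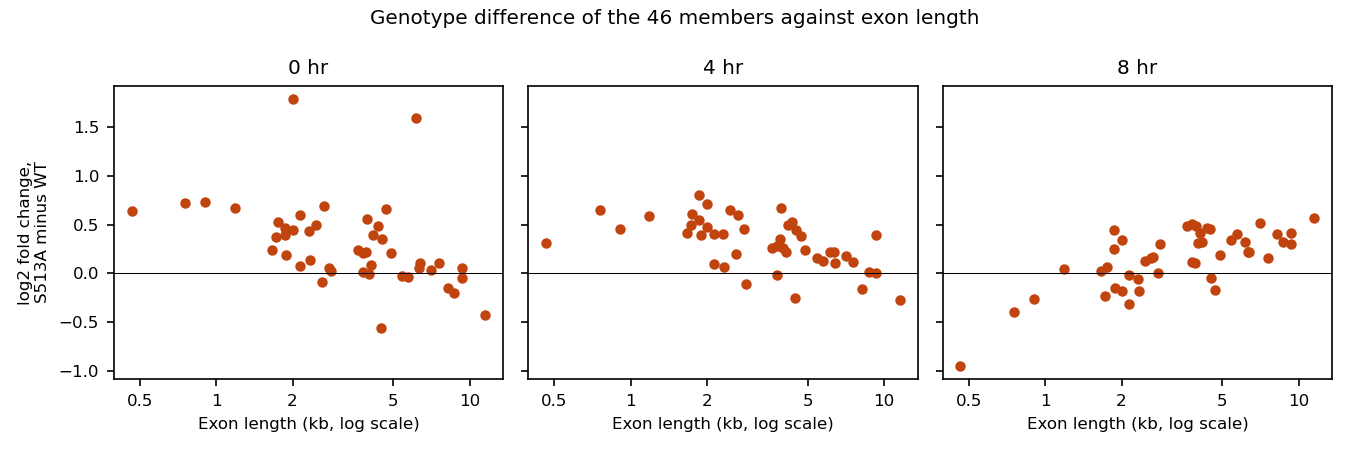
Log2 fold change of S513A minus WT (vertical axis) of the 46 members against exon length in kb (log scale) at 0, 4 and 8 hr. Short members lie above long ones at 0 and 4 hr and below them at 8 hr, with rho of -0.60, -0.61 and 0.60.

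The genes of the pathway known to drive this set were also measured. Of 16 pathway genes listed for comparison, 15 were tested and *Ifnb1* was not found by symbol among the genes measured. At 4 hr 12 were higher and *Tlr4* lower (log2 -0.31 ± 0.07), at 8 hr 12 were higher and none lower, and between 4 and 8 hr 1 rose and 2 fell. The shares of all genes were 29.1% and 26.7% at 4 hr, 24.5% and 21.6% at 8 hr, and 12.8% each way between the times. *Irf7*, the factor that amplifies interferon production, had a mean log2 CPM of 5.23 ± 0.15, 8.18 ± 0.21 and 9.41 ± 0.25 (SD, n = 4 libraries) at 0, 4 and 8 hr and gained 1.22 ± 0.12 after 4 hr. In that interval 10 members rose and 16 fell, and the part of *Irf7* in either was not tested.

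The transcription factor genes *Stat2* and *Irf9* were not called higher in that interval. *Stat2* rose by 2.78 ± 0.11 at 4 hr and differed by -0.27 ± 0.11 between 8 and 4 hr (adjusted p = 0.095), and *Irf9* rose by 1.47 ± 0.07 and fell by 0.28 ± 0.07. The receptor chain *Ifnar1* rose by 0.76 ± 0.08 and fell by 0.29 ± 0.08, and *Ifnar2* rose by 1.21 ± 0.08. The inhibitors *Socs1* and *Socs3* rose by 4.69 ± 0.15 and 3.17 ± 0.12, and *Irf1* by 2.71 ± 0.08. *Tbk1*, *Ticam1*, *Ticam2* and *Tyk2* rose by 1.02, 0.54, 0.48 and 0.58, and *Irf3* (0.14 ± 0.09) and *Jak1* (0.19 ± 0.07) were not called. None of the 15 was called between the genotypes.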

How the data were processed

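Polyadenylated RNA of 12 libraries was sequenced. Per the paper's methods and the submitters' processing notes, reads were mapped as unstranded on mm10 with HISAT2 and counted with featureCounts 1.6.3. The authors deposited log2 CPM: multiplying back by each library's effective size gave whole reads plus 0.5 for 100% of values, within 0.01 read. The program behind these values, the annotation and the gene filter are not given in the sources used here.

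The deposited values were fitted with limma 3.58.1 (R 4.3.3), as 6 group means, with 6 residual degrees of freedom and a prior that follows the mean level. The filter was 1 CPM in at least 2 libraries, tests were two-sided and p values were adjusted over 11885 genes. The fit was also run on simulated independent counts. These held no component related to length or shared between libraries, so that run says nothing on such components in these data. Member and marker lists and tests were chosen with earlier results of these data known. All members are named, and values in every library are given for the 3 largest called rises at 4 hr, the 3 largest called rises and falls between 8 and 4 hr, members not called at 4 hr, the 3 most abundant per length and 2 pairs of near-identical genes. Positions and exon lengths came from the GENCODE annotation of GRCm38 (98.1% of genes matched), and promoter windows from RefSeq. A pathway gene is not reported here. Plots used matplotlib 3.10.9.

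Alternatives were no filter, a mean level of 5 CPM or more, 1 CPM added before the log, median-ratio scaling, quantile normalization, CPM of the summed reads, a replicate block, no trend, a robust prior, only the libraries compared, voom weights on the recovered reads, and each library left out in turn. Removal of a length trend (spline with 5 degrees of freedom) and crossed replicate numbers were chosen after seeing the data.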

Additional observations from a re-analysis of the deposited data

How the results depend on the processing

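The count of members higher at 8 hr than at 0 hr was 46 under every alternative run, and the count at 4 hr was 44 to 46. Between 4 and 8 hr, 10 to 15 members rose and 14 to 17 fell under the alternatives that kept all libraries of the comparison, and 9 to 13 rose and 13 to 17 fell with 1 library left out. With a replicate block the counts were 14 and 17, and no member was called between the genotypes. The share of all genes called also changed with the setting. It was 12.8% rising and 12.8% falling in the main fit and 16.7% and 8.38% with CPM of the summed reads. A change in these counts of members is therefore not particular to the members. Whether libraries of the same replicate number are paired could not be settled. Their deviations correlated from -0.10 to 0.08 between times in WT, from 0.09 to 0.42 in S513A and from -0.41 to 0.14 across genotypes. In some groups these deviations also moved with transcript length. Crossed numbers (chosen after seeing the data) called 0 members between the genotypes at 0 and 4 hr. CPM of the summed reads moved the all-gene median at 4 hr to -0.24, and *Ly6e* at 4 hr turned to -0.0035 after quantile normalization, where it was not called. The members' median between 8 and 4 hr ran from -0.09 to 0.04 over all alternatives, so its sign depends on the setting. Between the genotypes at 0 hr, 7 members were called in a model of only the libraries compared, which estimates the spread from 4 libraries. With 1 library left out, 0 to 2 members were called for the difference in the 8 hr against 0 hr response, and 0 to 7 for that in the 8 hr against 4 hr change. The median SE of the members was 0.14 for a difference between times and 0.19 for one between genotypes at 1 time, which limits what 2 libraries a group can show.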
